A study of Drosophila melanogaster with 30 samples.

Results

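The 118 probes described here had log2 ratios of the same sign in the whole pupae of 2 different fru mutants, out of 15744 probes on the array. They were chosen by their own measured values. A probe was taken where the mean of the deposited ratios over whole-body replicates 1 to 4 (fru-440/fru-P14) and the mean over replicates 5 to 8 (fru-w12/fru-ChaM5) each rested on at least 3 values, had the same sign and were both at least 0.4 log2 units in size, and where at least 1 of the 22 CNS or brain arrays gave a value. Both means existed for 6204 probes; 123 met the conditions on sign and size, and 5 of these were lost because no CNS or brain array measured them. Of the 118 members, 29 had positive means in both mutants (the positive members) and 89 had negative means in both (the negative members). By the same thresholds 175 probes had means of opposite sign in the mutants.

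fruitless (fru) is a gene of the sex determination pathway of the fly. Its P1 promoter gives transcripts that are spliced differently in males and females, and in males they encode FRUM, a family of zinc finger transcription factors made in a subset of neurons and needed for male courtship behaviour. The ecdysone receptor EcR is a nuclear receptor for the steroid hormone that times metamorphosis, and EcR-A is one of its isoforms. At 48 h after puparium formation (APF) the nervous system is in the middle of being rebuilt into that of the adult. A whole pupa also holds muscle, gut, fat body, epidermis and the reproductive system, so whole-body ratios and CNS ratios do not measure the same mixture of cells. In such bulk samples fewer cells of a type and less RNA per cell cannot be told apart.

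The study used spotted arrays with 2 channels, 1 sample labelled with Cy5 and the other with Cy3, and compared samples directly on each array. In the whole body, fru-440/fru-P14 males were set against Canton S males (4 arrays) and w; fru-w12/fru-ChaM5 males against w; Berlin males (4 arrays), all at 48 h APF, with about 30 pupae a sample. In the dissected brain and ventral nerve cord at 48 h APF, the w; fru-w12/fru-ChaM5 males were again set against w; Berlin (replicates 1 to 3) and the fru-440/fru-P14 males against Canton S (replicates 4 to 6), and Canton S males were set against Canton S females (4 arrays), with about 20 animals a sample. Males carrying fru P1-GAL4 and uas-EcRA RNAi, which targets EcR-A in the cells where the fru P1 driver is active, were set against fru P1-GAL4; + males, which carry the driver as well, in the CNS at 0 h APF, in the brain at 48 h APF and in the brain of adults of up to 24 h (4 arrays each). Every sample was a pool of animals. The mutants differ from each other in both fru lesions and in their control strain, so a difference between them cannot be told apart from a difference between strains. In the CNS each mutant was also hybridised in 1 dye orientation alone (w; fru-w12/fru-ChaM5 always in Cy5, fru-440/fru-P14 always in Cy3), so there mutant and dye cannot be told apart.

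All signs below are those of the deposited log2 ratios. The labels do not say which sample a positive ratio favours, so a sign is given as positive or negative and not as higher or lower in a mutant, a sex or an RNAi animal, and nothing links the whole-body sign to the CNS sign. Within an experiment the ratios were taken to run 1 way on all arrays, whatever the dye; the alternative reading, Cy5 over Cy3 on every array, left 3 of the 29 positive and 1 of the 89 negative members in the set, so the set as a whole rests on this reading. An array held values for 3934 to 11533 probes, and the number of arrays limits the precision. Replicates 2, 3 and 4 of the RNAi experiment at 48 h had an SD over probes between 1.412 and 2.671, whereas it lay between 0.352 and 0.689 on the other 27 arrays, so their scale is unknown. The array descriptions name replicates 2, 3 and 4 of the fru-440/fru-P14 whole-body arrays, replicate 6 of the fru CNS arrays and replicate 1 of the sex arrays as scanned after a second wash. Probes carry plate positions as names (DAC014E14), and the files used here do not pair them with genes, so no member has a gene name and none could be assigned to a pathway, tissue or cell type. For the same reason several members may report 1 gene, so counts of members are not counts of genes.

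In the whole body the negative members were both more numerous and farther from 0 than the positive ones. Negative members made up 75.4% of the set. Their median mean was -0.753 in fru-440/fru-P14 (range -1.82 to -0.403) and -0.904 in fru-w12/fru-ChaM5 (range -3.208 to -0.415). For the positive members the medians were 0.695 (range 0.422 to 1.208) and 0.581 (range 0.411 to 1.814). All 11 members beyond 1 log2 unit in both mutants were negative. The mean was larger in fru-w12/fru-ChaM5 than in fru-440/fru-P14 for 54 of 89 negative members but for 7 of 29 positive ones. These values chose the members and are given as a description, with no test.

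**Figure D1:**
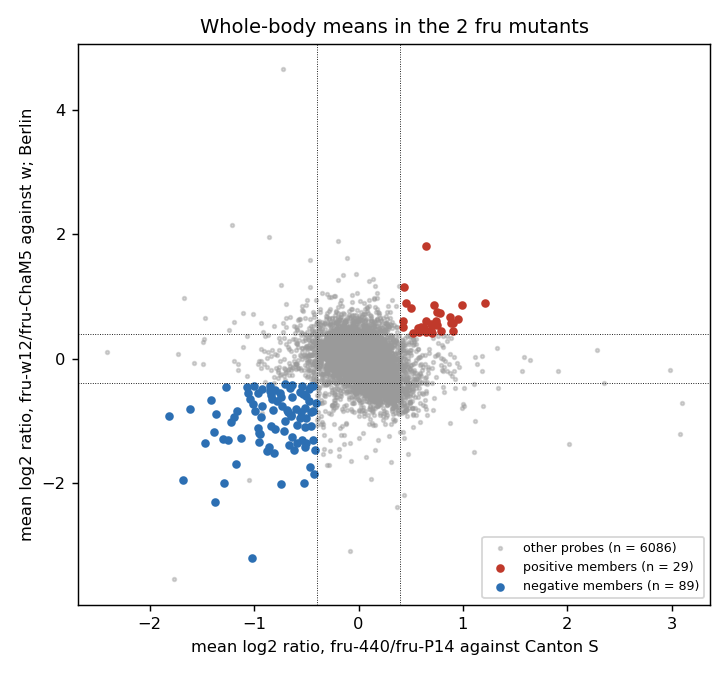
Each point is 1 of the 6204 probes with a mean in both whole-body comparisons; the x axis is the mean log2 ratio in fru-440/fru-P14 against Canton S and the y axis the mean log2 ratio in fru-w12/fru-ChaM5 against w; Berlin, with dotted lines at 0.4 log2 units on either side of 0. The 29 positive members (red) sit in the upper right corner and the 89 negative members (blue) spread much farther out in the lower left one.

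The members varied more from array to array than all probes with both means did. The median SD over arrays was 0.418 in fru-440/fru-P14 and 0.523 in fru-w12/fru-ChaM5 for members, against 0.224 and 0.298 for all probes with both means. The rule chose the members on these same arrays, so it favours agreement in sign and means beyond their SD. It also favours probes with a large SD, whose means over few arrays reach 0.4 more readily. Of the 118 members, 75 had the same sign on every whole-body array that measured them (17 positive and 58 negative members), and 80 had a mean larger than its own SD in both mutants. In the other 38 the mean lay within its SD in at least 1 mutant. Replicate 1 of fru-440/fru-P14 and replicate 8 of fru-w12/fru-ChaM5 held the most values against the members' sign: 12 of 86 and 13 of 83 negative members were positive there, and 4 of 26 and 5 of 27 positive members were negative. On replicate 7 none of the 89 negative members was positive. A value on all 8 arrays existed for 69 members, 19 positive and 50 negative.

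Among positive members with a value on all 8 arrays, DAC014E14 had the largest weaker mean. Its ratios were 1.82, 1.609, 0.762 and 0.641 in fru-440/fru-P14 and 1.577, 1.282, 0.474 and 0.238 in fru-w12/fru-ChaM5, with means of 1.208 ± 0.593 and 0.893 ± 0.638 (SD, n = 4 arrays each). All 8 values of DAC014E14 were positive, and in each mutant both arrays with the mutant in Cy5 lay above both with it in Cy3. DAC040H24 followed, with 0.351, 1.67, 1.506 and 0.427 in fru-440/fru-P14 and 1.394, 0.602, 1.178 and 0.305 in fru-w12/fru-ChaM5 (means 0.988 ± 0.696 and 0.87 ± 0.504, SD, n = 4 each). DAC040H24 too was positive on all 8 arrays, and its high and low arrays were not those of a dye orientation.

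Among negative members with a value on all 8 arrays, the 2 with the largest weaker means were carried by some arrays and absent from others. DAC036M05 had ratios of -0.094, -2.913, 0.275 and -2.761 in fru-440/fru-P14 and of -5.716, -2.512, -1.225 and 0.193 in fru-w12/fru-ChaM5, so its means of -1.373 ± 1.698 and -2.315 ± 2.522 (SD, n = 4 each) were smaller than their SDs. DAC018N13 gave -0.342, -2.471, 0.043 and -2.374, and -4.919, -2.072, -1.214 and 0.223 (means -1.286 ± 1.322 and -1.996 ± 2.167, SD, n = 4 each). Both probes were far below 0 on replicates 2, 4, 5 and 6 and near 0 on replicates 1, 3 and 8, and the order of the 8 arrays was nearly the same in both. DAC035F01, in contrast, was negative on every array with little spread within a mutant: -1.145, -0.539, -0.595 and -0.704 in fru-440/fru-P14 and -2.06, -1.988, -2.191 and -1.829 in fru-w12/fru-ChaM5 (means -0.746 ± 0.275 and -2.017 ± 0.151, SD, n = 4 each). The groups did not overlap, and every fru-w12/fru-ChaM5 array of DAC035F01 lay farther from 0. DAC038M03, with the largest weaker mean after DAC036M05 and DAC018N13, was also negative on all 8 arrays, from -2.018 to -0.75.

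The threshold of 0.4 cut through a continuous spread. The weaker mean of 20 members was within 0.05 of it. On the positive side DAC030N16 was the nearest inside, with means of 0.7029 and 0.4114, and DAC018J23 the nearest outside, with 0.3837 and 1.1699 (fru-440/fru-P14 first). On the negative side DAC022N20 was just inside, with -0.4031 and -0.7178, and DAC034M13 just outside, with -0.3997 and -1.0674. Members came from 35 of the 40 plate numbers in the probe names, at most 7 from a plate, and made up between 0% and 4.67% of a plate's probes with both means.

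The first comparison that the choice of members did not use asked whether they also differed in the CNS between fru mutant males and males of their control strains. Of the 118 members, 85 had enough values to be tested (at least 5 of 6 arrays, both dye orientations), and 6 passed limma's test at an adjusted p of 0.05. That is 7.06% of the members tested, beside a background of 0.858% of all 7461 probes tested and 0.951% of those with both whole-body means. The called members were 1 positive and 5 negative ones; 5 had a positive CNS ratio (background 0.496%) and 1 a negative one (background 0.362%), with sizes between 0.469 and 0.808. At an unadjusted p under 0.05, limma gave 29 members (34.1%), beside 13.0% of all probes and 13.4% of those with both whole-body means. Of these members 22 had a positive CNS ratio (background 5.52%) and 7 a negative one (background 7.45%). Each mutant had 1 dye orientation here, so the dye coefficient also took up the difference between the mutants. The SE and p of every fru effect in the CNS therefore leave that difference out. DAC014E14 counted among the 22, though its mean was -0.302 in fru-w12/fru-ChaM5 and 1.021 in fru-440/fru-P14. Among the probes of opposite whole-body sign, chosen by the same size in the same arrays, 2 of 103 were called (1.94%) and 28 (27.2%) were under 0.05 unadjusted. Of these 28 probes, 19 had a positive CNS ratio and 9 a negative one. The median SD over the 6 CNS arrays was 0.498 for the members tested, 0.504 for the opposite-sign probes and 0.368 for all probes. The count of 6 called members was not fixed by 6 arrays: it was 1 without replicate 2, 3, 4 or 5, 10 without replicate 6, 2 with the experiment fitted alone and 1 with no dye coefficient. Of the 2 called with the experiment fitted alone, 1 was among the 6.

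DAC030B09 had the smallest p among the members, and its ratio was negative. Its CNS ratios were -1.208, -0.87 and -0.979 in fru-w12/fru-ChaM5 and -0.751, -0.52 and -0.493 in fru-440/fru-P14, so all 6 arrays were at or below -0.493 and the fru-w12/fru-ChaM5 arrays lay farther from 0. The effect was -0.804 ± 0.106 (SE, n = 6, 1.75-fold, limma adjusted p = 0.00274). In the whole body the same probe was likewise farther from 0 in fru-w12/fru-ChaM5, at -1.44, -1.407 and -1.541 on 3 arrays, than in fru-440/fru-P14, at -0.752, -0.713, -0.302 and 0.09. Its sex ratios in the CNS were -0.018, 0.178 and -0.183, on both sides of 0 (effect -0.011 ± 0.158, SE, n = 3). The call of DAC030B09 held without any 1 array and ended only under the Cy5 over Cy3 reading, at -0.216 (limma adjusted p = 0.146). A second negative ratio came from DAC004L24, whose 6 CNS values lay between -0.532 and -0.324 without overlap with 0 but did not pass the test (-0.434 ± 0.123, SE, n = 6, limma adjusted p = 0.133). DAC004L24 was also at or below -0.858 on all 7 whole-body arrays that measured it, with means of -1.251 ± 0.46 (SD, n = 3) and -1.307 ± 0.357 (SD, n = 4).

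The called members with positive CNS ratios and the smallest p were negative in the whole body. DAC029D04 had CNS ratios of 0.509, 0.652 and 0.595 in fru-w12/fru-ChaM5 and of 1.075, 1.302 and 0.062 in fru-440/fru-P14 (effect 0.699 ± 0.138, SE, n = 6, 1.62-fold, limma adjusted p = 0.0272). It was positive on all 6, with the last array near 0, whereas its 6 whole-body values were all negative, from -1.304 to -0.374. DAC013D06 stood at 0.445, 0.968 and 0.711 and at 1.086 and 0.503 (effect 0.751 ± 0.129, SE, n = 5, 1.68-fold, limma adjusted p = 0.0297), positive on every array that measured it. Its whole-body means were -0.434 ± 0.38 (SD, n = 4) and -0.838 ± 0.743 (SD, n = 3), and 1 array of each mutant was at or above 0. Neither call stood without replicate 2, 3, 4 or 5: limma's adjusted p was then 0.14, 0.125, 0.134 and 0.101 for DAC029D04, and 0.157, 0.142, 0.184 and 0.0508 for DAC013D06. Because nothing links the sign of whole-body and CNS ratios, opposite signs do not show opposite directions.

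**Figure D2:**
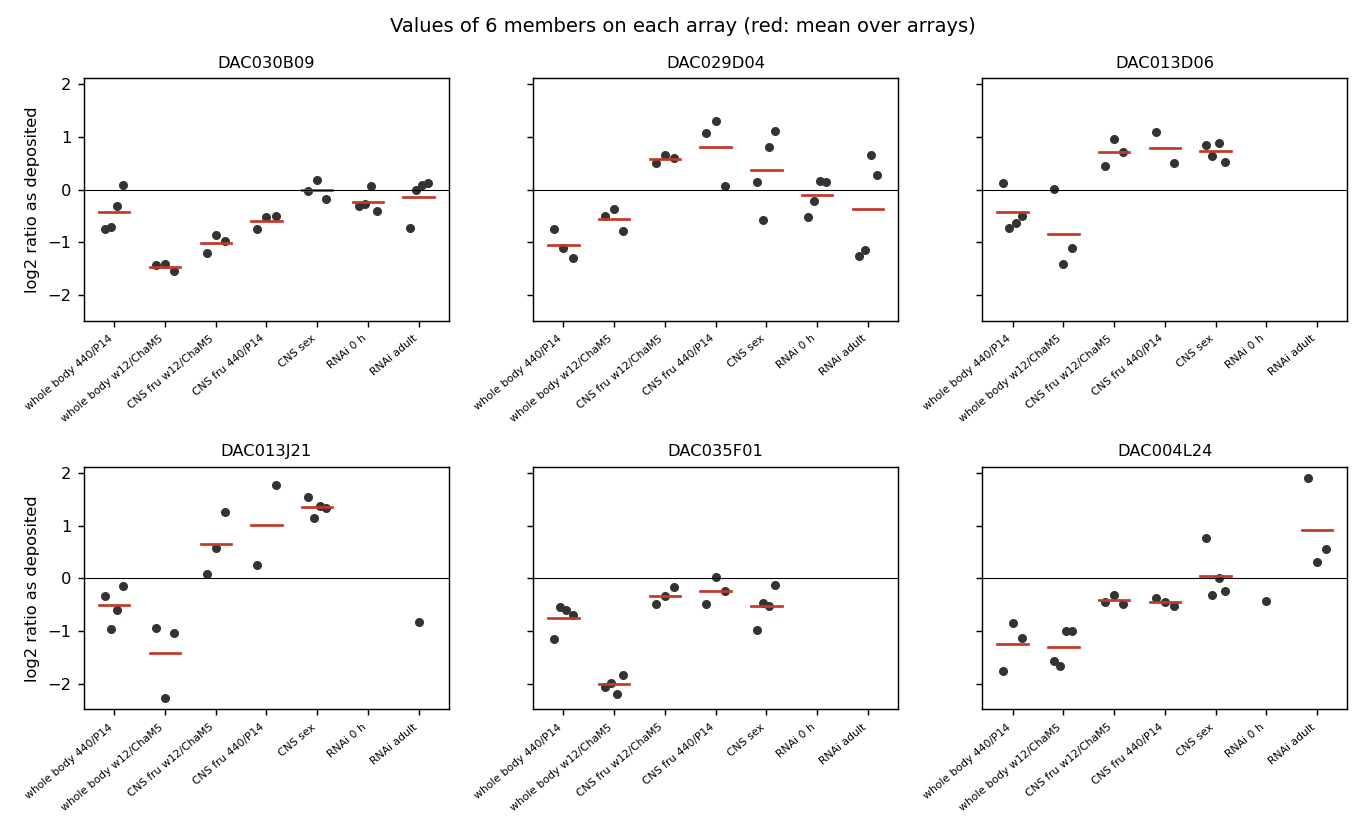
Each panel shows 1 member, with its log2 ratio on every array (points) and the mean over arrays (red line) in the whole-body, CNS and RNAi groups along the x axis; the RNAi arrays at 48 h are left out because their scale is unknown. DAC030B09 is negative on all 6 fru CNS arrays and near 0 for sex, DAC013D06 and DAC013J21 are positive in both fru and sex, and the RNAi groups hold few values for several members.

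Over all members, both signs of CNS fru ratio occurred among positive and among negative members. The mean over the 6 CNS arrays was positive for 37 of 62 negative members (median 0.084) and for 12 of 23 positive members (median 0.097), beside 42.1% of all probes (median -0.03). It was positive for 59.2% of the opposite-sign probes (median 0.077), near the 59.7% of the negative members, and for 47.6% of all probes with both whole-body means. The members' medians moved with single arrays: that of the negative members was 0.026 without replicate 5, and that of the positive members was 0.053, 0.026 and 0.052 with replicate 2, 3 or 4 left out. Agreement between the mutants in the CNS could be looked at for 87 members with at least 2 values in each. The means of the mutants had the same sign for 47 of them (54.0%), beside 33.7% of all probes and 48.1% of the opposite-sign probes. Both means were at least 0.4 in size with the same sign for 14 members (16.1%), 12 of them positive, beside 3.15% of all probes and 12.2% of the opposite-sign probes. The members' share was thus near that of the probes on which the mutants disagreed in the whole body. Since each mutant has its own dye here, the low share of all probes with 1 sign cannot be told apart from a dye difference. DAC014E14 was such a probe, at -0.185, -0.569 and -0.15 in fru-w12/fru-ChaM5 and at 1.23, 0.865 and 0.967 in fru-440/fru-P14 (effect 0.36 ± 0.104, SE, n = 6, limma adjusted p = 0.167).

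**Figure D3:**
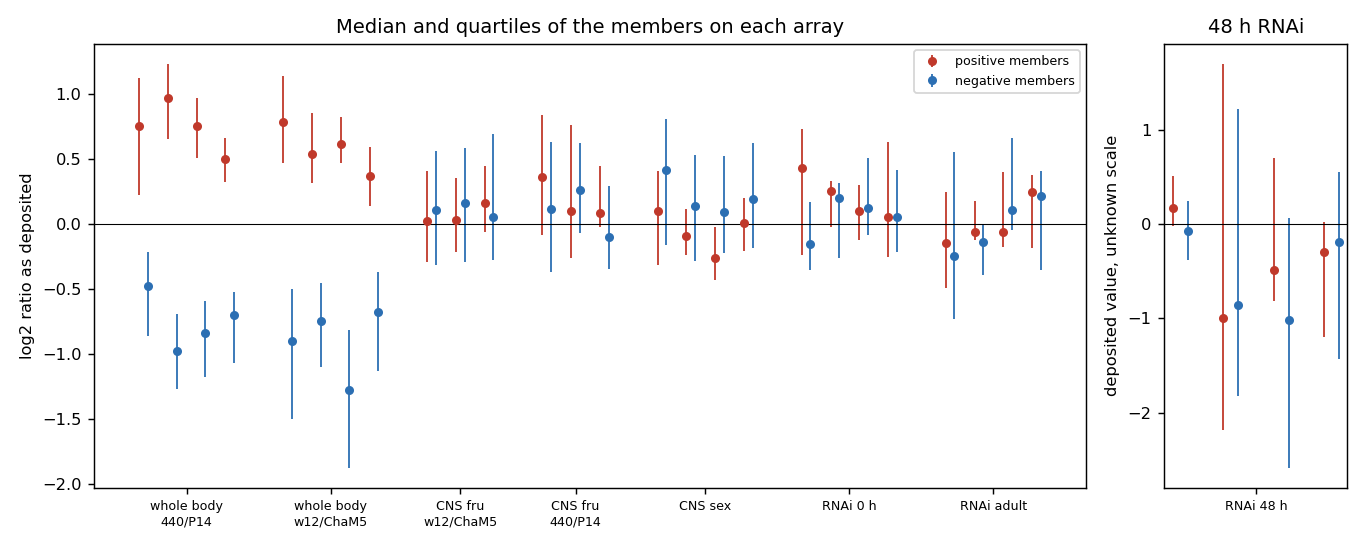
The y axis is the log2 ratio as deposited (right panel: the deposited value of unknown scale at 48 h of RNAi), and each point with its bar is the median and the quartiles of the positive (red) or negative (blue) members on 1 array, grouped by experiment. The whole-body arrays are split by the choice of members; in the CNS the groups overlap, and on the 4 sex arrays the median of the negative members lies above 0 and above that of the positive members.

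The second independent comparison, males against females of Canton S in the CNS, gave mostly positive ratios for the negative members and mostly negative ones for the positive members; the difference between these groups of members was not tested. Of 69 negative members with at least 3 of 4 values, 48 had a positive sex ratio (69.6%) and 21 a negative one, with a median of 0.212 (quartiles -0.053 and 0.433). Among the positive members 5 of 17 were positive (29.4%), with a median of -0.081. For all 7414 probes the share was 51.5% and the median 0.006, and for the opposite-sign probes the share was 43.3%. On each array more negative members were positive than negative: 41 of 61, 44 of 70, 41 of 70 and 48 of 72 on replicates 1 to 4, beside 53.3%, 53.1%, 45.7% and 46.8% of all probes, with medians of 0.416, 0.139, 0.091 and 0.193. The positive members' medians on these arrays were 0.096, -0.091, -0.265 and 0.005, in each case below that of the negative members. Replicate 1 was the rewashed slide, and without it the median of the negative members was 0.169; without any 1 array it lay between 0.152 and 0.248. Leaving out replicate 1 took the median of the positive members to -0.188. The median of the negative members was 0.121 among those with a value on all 8 whole-body arrays. Under the Cy5 over Cy3 reading it was -0.05, below that of the positive members, so the order of these groups rests on the reading of the ratios.

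Single members rarely passed the test in the sex comparison. Of 86 tested, 1 was called by limma (1.16%), with a positive ratio, beside 0.607% of all probes (0.0809% positive and 0.526% negative). At an unadjusted p under 0.05 there were 22 members (25.6%), all of them negative members, 20 with a positive and 2 with a negative sex ratio, beside 7.59% of all probes (3.37% positive and 4.22% negative). The opposite-sign probes were under 0.05 nearly as often (24.7%), but there 19 of the 24 were negative and 5 of 97 were called, all of them negative. The called member was DAC013J21, with ratios of 1.549, 1.142, 1.381 and 1.335 (effect 1.352 ± 0.242, SE, n = 4, 2.55-fold, limma adjusted p = 0.0466). Its 4 arrays lay close together and far above 0, yet the call ended with each array left out (limma adjusted p between 0.0895 and 0.275). DAC013D06, described above for fru, had 0.849, 0.644, 0.889 and 0.521, all positive (effect 0.726 ± 0.141, SE, n = 4, limma adjusted p = 0.0617). The negative ratios with the smallest p were those of DAC035F01, at -0.981, -0.478, -0.525 and -0.128 (effect -0.528 ± 0.134, SE, n = 4, limma adjusted p = 0.168), and of DAC039M17, at -0.784, -0.29 and -0.117 on 3 arrays (limma adjusted p = 0.333). DAC030D08, which had the largest whole-body mean of all members (-3.208 ± 1.653 in fru-w12/fru-ChaM5, SD, n = 3), gave sex ratios of 1.982, 0.059, 2.058 and 1.967, with replicate 2 alone near 0 (effect 1.517 ± 0.342, SE, n = 4, limma adjusted p = 0.139).

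Many negative members were positive in both CNS comparisons at 48 h. Of 59 negative members tested in both, 30 had positive means for fru and for sex (50.8%), 5 were positive for fru alone, 12 for sex alone and 12 were negative in both. Over all 6524 probes tested in both, 19.9% were positive in both, and among the 88 opposite-sign probes 17.0%. In each comparison alone the negative members were already positive more often than all probes (59.7% beside 42.1% for fru, 69.6% beside 51.5% for sex). Whether the share positive in both exceeds what these shares give was not tested. The labels do not say whether the Canton S male samples of the fru-440/fru-P14 arrays and of the sex arrays were the same. With the fru-w12/fru-ChaM5 arrays alone, whose controls were w; Berlin, 31 of 67 negative members were positive in both (46.3%), beside 25.0% of all probes and 27.4% of the opposite-sign probes. With the fru-440/fru-P14 arrays alone there were 27 of 61 (44.3%), beside 21.0% and 13.3%. Of the positive members 3 of 16 were positive in both (18.8%), near the share of all probes. Under the Cy5 over Cy3 reading, an alternative added after the data were seen, 21 of the 59 negative members were positive in both (35.6%), beside 41.4% of all probes and 36.4% of the opposite-sign probes, so the larger share of the negative members rests on the reading of the ratios.

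Some members had an unadjusted p under 0.05 in both tests. That was so for 9 of the 75 members tested in both (beside 1.66% of all probes and 6.82% of the opposite-sign probes), all of them negative members and all with the same sign in both, 8 positive and 1 negative. Being under 0.05 in both with positive ratios held for 10.7% of the members, beside 0.445% of all probes and 1.14% of the opposite-sign probes. In the joint fit both tests use the same estimate of a probe's spread, and the p of both leaves out the gap between dye orientations. Fitted each alone, the experiments gave 11 such members, 10 with positive ratios in both and 1 with negative ones. Of these 11, 10 were negative members and 1 was a positive member. Positive ratios in both held there for 13.3% of the members, beside 0.521% of all probes and 2.27% of the opposite-sign probes. DAC013J21, at 0.081, 0.581 and 1.269 and at 0.258 and 1.775 on the fru CNS arrays (effect 0.83 ± 0.221, SE, n = 5, limma adjusted p = 0.129), and DAC013D06 were among the members positive in both. DAC013I17 was another, with fru ratios of -0.622, 1.209, 1.013, 2.31, 1.324 and 0.355 (effect 0.932 ± 0.256, SE, n = 6, limma adjusted p = 0.131) and sex ratios of 0.339, 0.273, 1.438 and 1.543 (effect 0.898 ± 0.314, SE, n = 4, limma adjusted p = 0.427). DAC038C04 was also among the 8 members positive in both, at 0.451 and 0.96 and at 0.143, -0.202 and -0.343 for fru. Its sex ratios were 1.279 and 0.969 on replicates 1 and 2, but -0.346 and -0.454 on replicates 3 and 4, with dyes reversed. DAC035F01 was the member negative in both.

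**Figure D4:**
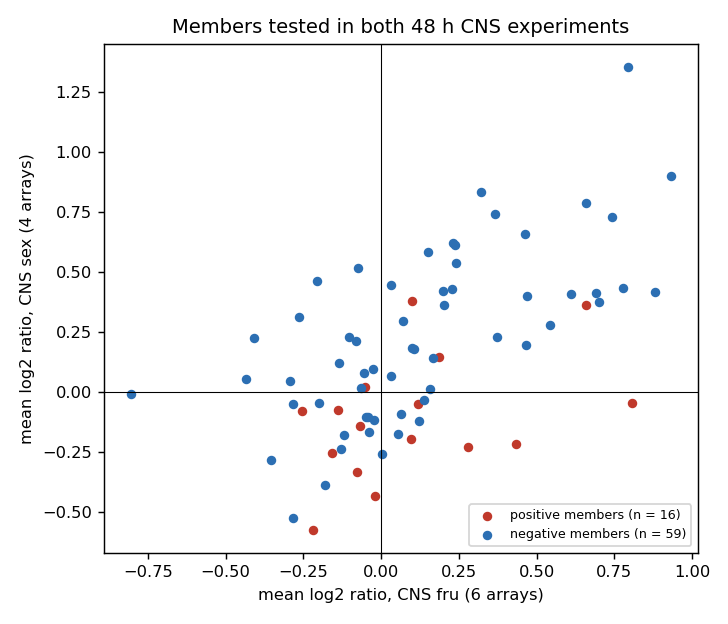
Each point is 1 of the 75 members tested in both CNS experiments at 48 h; the x axis is the mean log2 ratio over the 6 fru arrays and the y axis the mean over the 4 sex arrays. Of the 59 negative members (blue), 30 lie in the upper right quadrant, and 3 of the 16 positive members (red) do.

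The EcR-A RNAi experiments gave no call among the members. At 0 h, limma called 0 of 35 members tested (background 0.371% of 5934 probes), with 2 under an unadjusted p of 0.05 (5.71%, beside 7.84%). In adults limma called 0 of 33 (background 0.0501% of 5992), with 3 under 0.05 unadjusted (9.09%, beside 3.79%). At 48 h limma called 0 of 53 (background 0.0465% of 4302), with 3 under 0.05 unadjusted (5.66%, beside 2.63%). At 0 h and in adults most members of either whole-body sign had a positive mean: 15 of 23 negative and 9 of 12 positive members were positive at 0 h, beside 47.8% of all probes, and 14 of 22 and 8 of 11 were positive in adults, beside 54.3%. The 0 h median of the positive members was 0.113, and -0.057 without replicate 1; that of the negative members was 0.066, and 0.0 without replicate 3. In adults the sign of the negative members followed the dye orientation: 39.5% and 21.1% of their values were positive on replicates 1 and 2, with the RNAi sample in Cy5, and 69.4% and 65.2% on replicates 3 and 4. Without replicate 4 the adult medians were -0.079 for negative and -0.029 for positive members, against 0.044 and 0.063 with it, and without replicate 2 they were 0.14 and -0.011. At 48 h, on the arrays of unknown scale, 32 of 43 negative members and 6 of 10 positive members had a negative mean, beside 50.4% of all probes with a positive one. Of the opposite-sign probes 45 of 67 were negative there.

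DAC004L24 came closest to the threshold in adults. Its values were 1.904, 0.306 and 0.566 on 3 arrays, with replicate 1 far above the others and alone in its dye orientation (effect 1.17 ± 0.184, SE, n = 3, 2.25-fold, limma adjusted p = 0.0534). The SE does not hold the gap between dye orientations, and the call was made with arrays centred on their medians (limma adjusted p = 0.0493) and without replicate 2, which held no value of this probe (0.0137). It was also made where probes with 2 of 4 values were tested too (0.0406) and under the Cy5 over Cy3 reading (limma adjusted p = 0.0133). DAC036M06 had 0.791, 0.037, 1.316 and 0.038, all positive but spread widely (limma adjusted p = 0.998). DAC029D04 had -1.256 and -1.153 with the RNAi sample in Cy5 and 0.653 and 0.278 with it in Cy3, so its sign followed the dye orientation (limma adjusted p = 0.998). DAC030B09 had -0.725, -0.009, 0.089 and 0.119 there (limma adjusted p = 0.998), and at 0 h -0.32, -0.265, 0.073 and -0.403 (limma adjusted p = 0.739).

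At 0 h the smallest p among members belonged to DAC038M03, at 1.244, 0.638 and 0.479 (effect 0.71 ± 0.206, SE, n = 3, limma adjusted p = 0.282), and to the positive member DAC007D04, at 0.399, 0.411, 0.1 and 0.284 (effect 0.299 ± 0.0954, SE, n = 4, limma adjusted p = 0.321). Both were positive on every array that measured them. DAC007D04 was also steady in the whole body, with means of 0.594 ± 0.149 and 0.512 ± 0.131 (SD, n = 4 each). DAC012G10 had -1.415, 0.341 and 0.689, with its 1 negative value on replicate 1, which alone measured it with the RNAi sample in Cy5 (limma adjusted p = 0.677). At 48 h the smallest p belonged to DAC013I17 and DAC029H08 on the positive side and to DAC030D08 and the positive member DAC025P10 on the negative side, each with a limma adjusted p of 0.999. DAC030D08 had values on the 3 arrays of unknown scale alone and was negative on each. DAC025P10 was also negative on those 3 arrays and stood at 0.383 on replicate 1.

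The members' values were also spread unevenly over the experiments. The share with enough values for a test was 72.0% for fru and 72.9% for sex in the CNS at 48 h, close to the 69.5% and 67.6% of all probes with both whole-body means. At 0 h it was 29.7% and in adults 28.0%, beside 57.8% and 57.3%. In the 48 h RNAi experiment it was 44.9%, beside 48.1%. Of the 75 members tested in both 48 h CNS experiments, 34 (45.3%) were tested neither at 0 h nor in adults, beside 13.4% of the 3891 probes with both whole-body means. For the opposite-sign probes the shares were 58.9% and 55.4% for fru and sex, 33.7% and 26.3% at 0 h and in adults, and 38.3% at 48 h of RNAi, and of those tested for both fru and sex 34.1% were tested neither at 0 h nor in adults. The 48 h RNAi arrays carry the same genotypes as the 0 h and adult ones. The rule that left cells empty in the deposited table is not given in the sources used here, and its part in these shares was not tested. Among the 118 members 18 could be tested in none of the 5 comparisons and 14 in all of them.

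**Figure D5:**
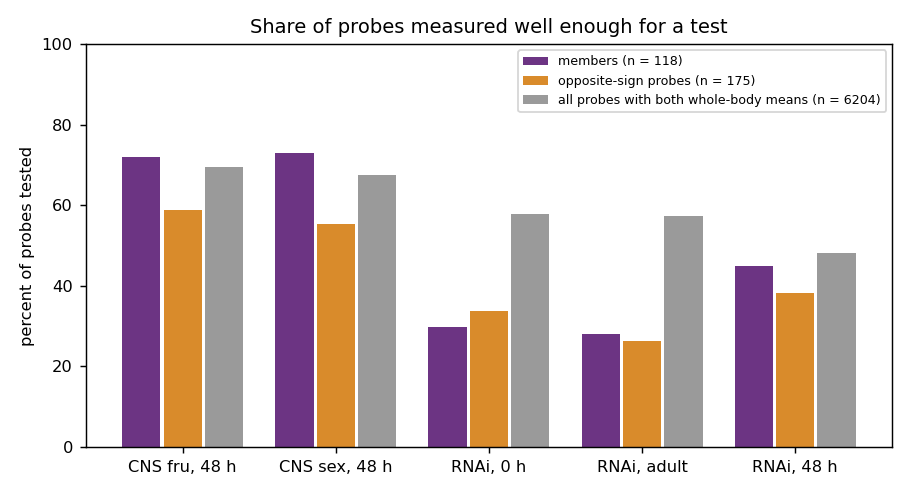
Bars give the percent of probes with enough values for a test in each of the 5 CNS or brain comparisons, for the 118 members, the 175 opposite-sign probes and all 6204 probes with both whole-body means. The members' bars stand at 72.0% and 72.9% for fru and sex at 48 h and at 29.7% and 28.0% for RNAi at 0 h and in adults, where all probes with both means stand at 57.8% and 57.3%.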

How the data were processed

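Whole pupae, CNS and brain were measured on 30 arrays. The authors deposited 1 value per probe and array; on 27 arrays the deposited values have the form of normalized log2 ratios, and on 3 arrays (RNAi at 48 h, replicates 2 to 4) they were taken as a score of unknown scale, from which no fold is given. The authors used limma, per the submitters' processing notes. What is not given in the sources used here is its version, the background correction, the normalization, the ratio direction and the rule for empty cells. Per the labels' protocols, whole-body cDNA was labelled directly and CNS RNA was amplified first. Samples were independent biological ones, per the series' design text.

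After 32 control spots were left out, members were found by the rule given above. Effects were tested two-sided with lmFit and eBayes of limma 3.58.1 (R 4.3.3), with Benjamini-Hochberg adjustment over all probes tested and a threshold of 0.05. The model held 1 effect and 1 dye coefficient per experiment, so no SE or p holds the gap between dye orientations. The 18 CNS and brain arrays of the fru, sex, 0 h and adult experiments shared 1 fit, and the 48 h RNAi arrays were fitted alone. A probe was tested where 75% of an experiment's arrays had a value, with both dye orientations. A fold is 2 to the power of the effect's size. Code was tested on simulated data, with a smaller spread than the real data and changes larger than the effect of any member. The simulation therefore does not show how often effects of the members' sizes would be found. Members and lists were chosen with earlier results of these data known. Named probes are, in each test, the 2 members with a positive and the 2 with a negative effect that have the smallest p, the 2 positive and 2 negative members with the largest weaker whole-body mean among those with 8 values, and those beside the 0.4 threshold. DAC038C04 was added as an example and is not among the named effects counted below. Marker lists could not be used without gene names. Alternatives changed the rule, scaling, dye reading, filter on empty cells, fit and arrays.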

Additional observations from a re-analysis of the deposited data

Results flagged for a closer look

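Of 36 sets of values looked at for 1 array far from the others, 1 stood out, and chance alone gives about 1 in 20. It was DAC030B09 in the adult RNAi experiment, where replicate 1 had -0.725 and the other arrays lay between -0.009 and 0.119. Of 27 pairs of groups looked at, 4 named probes had 1 sign on every fru-w12/fru-ChaM5 array of the CNS and the other sign on every fru-440/fru-P14 array. DAC014E14 had means of -0.302 and 1.021, DAC007D04 of 0.086 and -0.224, DAC036M06 of 0.089 and -0.252, and DAC029H08 of -0.242 and 0.372. These differences were not tested, and mutant and dye orientation cannot be told apart on these arrays.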

How the results depend on the processing

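No paired analysis was possible because each array is itself a direct comparison of a pair of samples and every test lies within an experiment, where replicate numbers do not link samples. The 29 positive and 89 negative members became 62 and 140 with a mean size of at least 0.3, 16 positive with 0.5, 19 and 50 with a value on all 4 arrays of each mutant, 47 positive under the Cy5 over Cy3 reading, and 23 to 36 and 61 to 88 with 1 array left out. For fru in the CNS, the 6 members and 64 probes called became 18 and 1941 (Cy5 over Cy3), 1 and 4 (no dye coefficient), 2 and 36 (fitted alone), and 1 to 10 and 17 to 200 with 1 array left out. The probes were 132 where both dye orientations needed 2 values and 153 with a value on 3 of 6 arrays. Under Cy5 over Cy3 none of the 6 members and 25 of the 64 probes were still called. Fitted alone, 1 of the 6 members was. For sex, the 1 member and 45 probes became 7 and 794 (Cy5 over Cy3), 2 and 75 (alone), 0 and 14 (2 values in each orientation), and 0 to 1 and 12 to 36 with 1 array left out. Members were 0 with arrays centred and 2 with arrays scaled, and probes 24 with no dye coefficient. The 1 member called for sex was not among those called under Cy5 over Cy3 or without replicate 2. At 0 h of RNAi the 0 members and 22 probes became 3 and 482 (Cy5 over Cy3), and members 1 with a value on 2 of 4 arrays; probes were 58 (scaled), 0 (no dye coefficient), 1 (2 values in each orientation), 4 (alone) and 1 to 48 with 1 array left out. In adults the 0 members and 3 probes became 7 and 1836 (Cy5 over Cy3), 1 and 6 (2 of 4 arrays), and 0 to 2 and 0 to 22 with 1 array left out; members were 1 with arrays centred, and probes 1 (scaled), 0 (no dye coefficient) and 0 (2 values in each orientation). At 48 h the 0 members and 2 probes became 12 and 1093 in 1 fit of all 22 CNS and brain arrays, and 0 to 1 and 0 to 49 with 1 array left out; probes were 0 with arrays centred, with Cy5 over Cy3, with no dye coefficient and with 2 values in each orientation. Under Cy5 over Cy3 the medians became -0.076 and -0.004 (fru, positive and negative members), 0.12 and -0.05 (sex), -0.064 (0 h, negative members), -0.149 (adults, negative members) and 0.047 and 0.202 (48 h), and the fru median of positive members was -0.036 among members with all 8 whole-body values. Effects that turned sign under Cy5 over Cy3 were those of DAC029D04 (-0.114), DAC013D06 (-0.043) and DAC004L24 (0.015) for fru, DAC013J21 (-0.006) for sex, DAC036M06 (-0.132) in adults, and DAC013I17 (-1.519), DAC029H08 (-0.705) and DAC025P10 (0.258) at 48 h; DAC030B09 in adults lay between -0.31 and 0.047 with 1 array left out. Among the 20 named effects, only DAC030B09, DAC029D04 and DAC013D06 for fru and DAC013J21 for sex were called. The other named effects were uncalled, and that of DAC004L24 in adults gained a call in some alternatives. Of 204 alternatives run for the 20 named effects, 165 kept sign and side of the threshold, 19 lost a call, 11 gained one and 9 turned sign. The cause of these changes was not tested.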
